A study of Mus musculus with 9 samples.

Results

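The regions described here are the constitutive distal accessible regions of reprogramming mouse cells. They were chosen by the peak calls themselves. Overlapping ATAC-Seq peaks of 7 time-course libraries were merged on chromosomes 1 to 19, which gave 204843 union regions. A region was counted as present in a library when at least 1 bp of it lay in a peak there. Of all union regions, 13097 were present in all 7 libraries (6.39%). Among these, 3023 had their midpoint more than 3 kb from every annotated transcription start site (TSS), and these 3023 are the members. The other 10074 lay within 3 kb of a TSS. Presence and level in the 7 libraries are therefore what the rule used, and they are given as a description without a test.

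In ATAC-Seq, the transposase Tn5 cuts DNA that is not covered by nucleosomes, so that sequenced fragments pile up where chromatin is open. Mouse embryonic fibroblasts (MEFs) were infected with pMXs viruses carrying Oct4, Sox2, Klf4 and c-Myc (OSKM), and the time course asks how chromatin is rewired on the way to induced pluripotent stem cells (iPSCs). The libraries were D0 and D3 (MEFs at day 0 and cells at day 3 after OSKM, unsorted), D6T- and D9T- (Thy-1-negative cells of days 6 and 9), D12S+ and D16S+ (SSEA-1-positive cells of days 12 and 16) and unsorted, fully reprogrammed iPSCs. Thy-1 is a fibroblast surface marker, and SSEA-1 is a surface marker of mouse pluripotent cells. A further 2 libraries came from day 6 OSKM cells labelled as sorted for lack of Thy-1, although another description in the study names no sort for them, so whether they match D6T- in sorting is not settled. In D6_siH3.3, siRNA had been used against the histone variant H3.3 before induction, and D6_siNT received a non-targeting siRNA. Each condition had 1 library, so no difference between conditions has a replicate check. The loss of H3.3 cannot be checked in peak files.

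The libraries held 13213117 (D9T-) to 31714845 (D0) tags. Their weakest called summit had 7 to 11 tags, or 0.331 to 0.53 CPM (tags per 1000000 tags of the library), and a weaker opening was not detectable. Promoter peaks (3 kb upstream of a TSS) of marker genes were set against the labels. All 5 fibroblast marker genes (Col1a1, Col1a2, Thy1, Twist1 and Postn) had one at D0 and 3 of 5 in iPSCs. Among 5 pluripotency genes (Nanog, Esrrb, Zfp42, Dppa4 and Tdh), 1 had one at D0 and 5 of 5 in iPSCs. D9T-, the shallowest library, had promoter peaks at 2 fibroblast genes and at 0 pluripotency genes. All 9 libraries also held peaks on mitochondrial DNA (chrM), whose tags are part of the library totals.

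Distal accessible regions include enhancers, insulators and unannotated promoters. CTCF is a zinc finger protein that binds insulators and anchors chromatin loops, and many of its sites are shared by unrelated cell types. AP-1 (Fos and Jun dimers) binds enhancers of fibroblasts and other somatic cells, whereas Oct4, Sox2 and Klf4 act at enhancers of pluripotent cells. GC-rich DNA bound by SP, ETS and NRF1 factors is typical of promoters of broadly expressed genes.

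Sequences around the strongest summit show what kinds of DNA the members held. All are on the plus strand of mm9. The first set shows a CTCF motif in capitals. It holds the member with a CTCF motif that had the highest mean level, 8141 bp from the TSS of Acvrl1, and the member whose level varied least among the upper 50% by level, 18771 bp from the TSS of Gm5174.
chr15:100975981-100976180: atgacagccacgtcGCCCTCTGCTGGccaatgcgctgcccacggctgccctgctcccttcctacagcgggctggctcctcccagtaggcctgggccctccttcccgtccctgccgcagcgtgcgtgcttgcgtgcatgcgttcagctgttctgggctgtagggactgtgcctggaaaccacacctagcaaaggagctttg
chr10:86099795-86099994: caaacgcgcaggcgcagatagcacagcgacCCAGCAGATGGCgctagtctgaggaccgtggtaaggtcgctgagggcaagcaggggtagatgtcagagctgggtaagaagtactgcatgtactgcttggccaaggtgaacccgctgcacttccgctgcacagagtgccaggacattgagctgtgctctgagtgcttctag

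The second set shows AP-1 motifs (TGANTCA) in capitals. The first is the member with this motif and the highest mean level among those with unrepeated sequence, 6181 bp from the TSS of Zfp869. The second is the member whose level leaned most towards the early libraries, 6632 bp from the TSS of the pseudogene Gm6153, and it held 3 such motifs.
chr8:72240837-72241036: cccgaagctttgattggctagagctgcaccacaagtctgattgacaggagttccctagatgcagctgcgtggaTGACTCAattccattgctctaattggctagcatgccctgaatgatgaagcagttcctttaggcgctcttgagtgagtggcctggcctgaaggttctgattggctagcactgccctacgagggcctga
chr1:89447708-89447907: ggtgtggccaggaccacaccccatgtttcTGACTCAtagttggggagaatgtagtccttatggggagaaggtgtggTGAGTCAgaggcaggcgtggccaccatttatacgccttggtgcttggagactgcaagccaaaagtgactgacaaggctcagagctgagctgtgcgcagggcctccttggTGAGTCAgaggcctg

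The third set shows motifs of promoters. The capitals mark an NRF1 motif (GCGCATGC) in the first and a match to the B box (GTTCGANNC), the internal promoter element of tRNA genes, in the second. They are the members with the highest mean level that carry each motif, 11188 bp from the TSS of Hic2 and 13817 bp from the TSS of Klrb1c.
chr16:17222369-17222568: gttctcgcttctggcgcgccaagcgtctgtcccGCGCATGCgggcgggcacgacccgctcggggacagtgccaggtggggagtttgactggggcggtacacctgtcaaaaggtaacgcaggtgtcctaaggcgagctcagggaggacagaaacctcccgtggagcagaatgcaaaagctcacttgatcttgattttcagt
chr6:128753134-128753333: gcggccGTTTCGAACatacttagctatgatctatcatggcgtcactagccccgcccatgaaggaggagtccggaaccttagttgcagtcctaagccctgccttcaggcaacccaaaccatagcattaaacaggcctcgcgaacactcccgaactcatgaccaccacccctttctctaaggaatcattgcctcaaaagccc

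The last set holds the 5 members with the highest mean level, in falling order. All 5 held repeated sequence, and whether that bore on their values was not tested. Capitals mark bases that are also in chrM in the first and the last, and a CENP-B box, the site bound by the centromere protein CENP-B, in the fourth. The second and the third carry the repeat of the mouse major satellite and the fourth that of the minor satellite, which lie beside and at mouse centromeres.
chr12:98299697-98299816: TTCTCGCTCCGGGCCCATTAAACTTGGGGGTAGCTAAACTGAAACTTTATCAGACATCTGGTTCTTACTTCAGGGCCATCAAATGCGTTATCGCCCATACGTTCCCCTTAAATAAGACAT
chr9:35112955-35113074: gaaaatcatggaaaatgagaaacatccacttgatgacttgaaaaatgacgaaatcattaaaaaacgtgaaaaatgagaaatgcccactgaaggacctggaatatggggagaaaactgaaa
chr12:3109930-3110049: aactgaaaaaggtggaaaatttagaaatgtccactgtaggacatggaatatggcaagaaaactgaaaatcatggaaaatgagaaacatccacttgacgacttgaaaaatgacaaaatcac
chr6:103599128-103599247: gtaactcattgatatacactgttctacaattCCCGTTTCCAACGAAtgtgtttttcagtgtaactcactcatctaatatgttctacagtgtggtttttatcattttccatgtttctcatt
chr2:69193534-69193653: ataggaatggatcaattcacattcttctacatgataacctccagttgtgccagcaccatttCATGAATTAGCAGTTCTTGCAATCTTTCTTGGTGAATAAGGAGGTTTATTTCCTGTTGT

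Constitutive presence was rare among distal regions and common near TSSs. Of 155654 distal union regions, 1.94% were present in all 7 libraries and 51.4% in 1 library. Of the regions within 3 kb of a TSS, 20.5% were present in all 7. A further 3942 distal regions were present in 6 libraries. The missing library was D9T- for 1481 of them (37.6%), D0 for 1183 (30.0%) iPSCs for 684 (17.4%) and D16S+ for 465 (11.8%), against 64 for D12S+, 45 for D3 and 20 for D6T-. D9T- had the fewest called regions (35811) and D6T- the most (129532), but between them the order differed: D0, with 80012 regions, was missed more often than D12S+, with 55759. Members made up 15.6% of the distal regions of D9T-, 5.59% of those of D0 and 3.17% of those of D6T-.

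Summits of the 7 libraries lay close together in most members. In 2915 of 3023 members (96.4%), 500 bp held a summit of every library. Any summit of a library counted, and a member narrower than 500 bp meets this by its width alone. The strongest summits of the 7 libraries spanned a median of 145 bp, with an upper quartile of 276 bp. The median member was 838 bp wide (quartiles 582 and 1236 bp), against 346 bp for the other distal regions and 1312 bp for regions within 3 kb of a TSS present in all 7. Merging more libraries widens a region, so widths carry no comparison.

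Members were open most strongly in D6T- cells. Levels are the highest summit pileup in the region, as CPM. The median level was 0.757 at D0, 1.26 at D3, 2.38 in D6T-, 1.06 in D9T-, 1.31 in D12S+, 1.09 in D16S+ and 0.752 in iPSCs. The first and the last library were thus close, and D6T- was 3.17 times as high as iPSCs. The level was highest in D6T- for 2502 members (82.8%), and lowest at D0 for 1353 (44.8%) or in iPSCs for 1036 (34.3%).

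Regions within 3 kb of a TSS present in all 7 libraries moved the same way, from a median of 0.883 at D0 to 3.46 in D6T- and 1.13 in iPSCs. The members' median was 0.857 of theirs at D0, 0.689 in D6T-, 0.511 in D16S+ and 0.667 in iPSCs. Members lay below these regions in all 7 libraries. They lay above the other distal regions called in the same library, by 1.17 times in D9T- (lowest) to 3.00 times in D6T- (highest). D6T- and D16S+ had close totals (21390800 and 21172835 tags), and D0, the deepest library, had one of the lowest member medians. D9T- had the fewest tags, and the summit of a median member held 14 tags there, against 51 in D6T-. The part of depth, mitochondrial tags or the Thy-1 and SSEA-1 sorts in these levels was not tested.

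**Figure D1:**
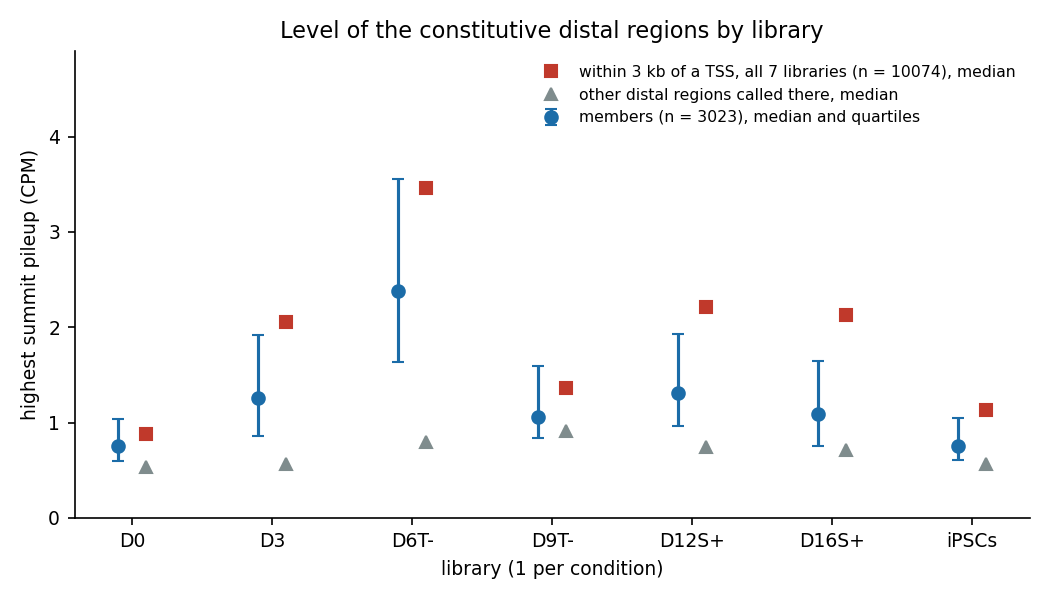
Level of accessible regions (vertical axis, highest summit pileup as CPM) in the 7 time-course libraries (horizontal axis, 1 library each). Circles and bars are the median and quartiles of the 3023 members, squares the median of regions within 3 kb of a TSS present in all 7, and triangles the median of the other distal regions called in that library. Members peaked at 2.38 in D6T- and lay between the other groups in all 7 libraries.

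The order of the members was shared in part by the libraries. Over the 3023 members, Spearman's correlation of the levels ran from 0.23 between D0 and iPSCs to 0.79 between D3 and D6T-, the members being regions of the same cells and not replicates. After each library's member median was removed, the spread of a member (the SD of its log2 level over the 7 libraries) had a median of 0.42 with quartiles of 0.32 and 0.56. For regions within 3 kb of a TSS present in all 7, the median was 0.32.

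Most members kept to within 2-fold between early and late cells. The rule itself limits larger changes, since a region below the calling threshold of any library was not a member. The lowest member measured 0.347 CPM at D0 and 0.376 CPM in iPSCs, against member medians of 0.757 and 0.752 CPM. The early libraries were D0, D3 and D6T- and the late ones D12S+, D16S+ and iPSCs, each relative to the member median. The mean levels of the 2 sets were within 2-fold for 2701 members (89.3%). Early cells were at least 2-fold higher for 151 (5.00%) and late cells for 171 (5.66%). Among all 13097 regions present in the 7 libraries, relative to the same medians, these shares were 1.49% and 3.70%. The split depended on the centring. Relative to the median of all 13097 regions it was 263 early (8.70%) and 77 late (2.55%) members, against 2.83% and 1.38% of all. An AP-1 motif lay in 99 of the 151 early members, against 20.3% of all members and 24.2% of all union regions. Of the 171 late ones, 12 held an AP-1 motif and 52 had sequence with a second copy in the genome.

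The most even member in the upper 50% by level was chr10:86099538-86100288, an intergenic region with a CTCF motif printed above. It measured 1.23 CPM at D0, 2.02 at D3, 3.83 in D6T-, 1.51 in D9T-, 2.04 in D12S+, 1.79 in D16S+ and 1.09 in iPSCs. Its spread was 0.08, so it followed the member median in every library. The next most even were chr8:74152784-74154280 in an exon 18609 bp from the TSS of Glt25d1, chr6:121079973-121080743 (nearest TSS Mical3), chr4:140828675-140829908 (Gm13056) and chr1:34293001-34293631 (Gm16750), with spreads of 0.10 to 0.12. A CTCF motif lay in 3 of these 5 and CpG-rich DNA in 3 of 5, against 10.1% and 20.3% of all members. In all union regions these shares were 2.29% and 8.48%. The 5 were picked as extremes, so no link to evenness can be read from these counts.

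The strongest lean to early cells was at chr1:89447457-89448342, in an intron, which measured 1.77 CPM at D0, 4.47 at D3, 7.43 in D6T-, 2.72 in D9T-, 1.70 in D12S+, 0.567 in D16S+ and 0.451 in iPSCs. Relative to the member medians, early cells were 3.99 times as high. It was followed by chr9:20565096-20565790, 32770 bp from the TSS of Olfm2, with an early to late ratio of 3.77, and by chr13:9189913-9191111, 81961 bp from a 7SK gene, with 3.62. All 3 held an AP-1 motif and were lowest in iPSCs.

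The strongest lean to late cells was at chr13:3036045-3036806, 83953 bp from the TSS of the pseudogene Gm17177. Its level was 0.757 CPM at D0, 0.628 at D3, 0.608 in D6T-, 0.984 in D9T-, 4.31 in D12S+, 7.13 in D16S+ and 3.05 in iPSCs, and it was called in neither siRNA library. Late cells stood apart from all early libraries here. It also had the largest spread of the upper 50% (1.72), and a 51-base stretch of it occurred 3 times in the genome. The next was chr3:137210341-137211303, 4764 bp from the TSS of Gm4861, which ran from 0.41 CPM at D0 to 3.64 in D16S+ with no second copy. The third, chr6:3132371-3134241, 201699 bp from the TSS of Samd9l, ran from 0.441 at D0 to 8.93 in D16S+. Other members of large spread were chr18:40467552-40468096 in an intron 49809 bp from the TSS of Kctd16 (1.77 at D0 and 18.7 in iPSCs), chr8:15519630-15520124 (1.07 at D0 and 16.4 in D16S+) and chr5:33075959-33077163 in an exon near Pisd (2.84 at D0 and 0.701 in D6T-).

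Members carried a CTCF motif more often than other distal regions. Motifs were sought on both strands in 200 bp around the strongest summit. The CTCF consensus lay in 304 of 3023 members (10.1%, 95% Wilson interval 9.03 to 11.2), in 2.26% of the other distal regions, in 1.49% of regions within 3 kb of a TSS present in all 7, and in 2.29% of all union regions. The members exceeded the other distal regions by 7.80 percentage points (95% Newcombe interval 6.77 to 8.92). Such intervals cover the sampling of regions only, and neighbouring regions are not independent. The share rose with the number of libraries, from 1.08% of distal regions present in 1 library to 4.82% in 4, 11.3% in 6 and 10.1% in 7. The members did not differ from the regions in 6 libraries beyond the interval (−1.23 points, −2.68 to 0.239).

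The motif sat under the summit. Among members, 176 CTCF motifs lay within 40 bp of the summit, a mean of 1.46 per 100 regions in each step of 20 bp, and 10 lay beyond 400 bp, a mean of 0.0331. In the 383 members with a motif in 1000 bp, its median distance from the summit was 44 bp. In the member near Acvrl1 (chr15:100975724-100976620), the level was 1.42 CPM at D0, 4.27 at D3, 7.67 in D6T-, 2.27 in D9T-, 4.09 in D12S+, 3.07 in D16S+ and 1.58 in iPSCs. It was highest in D6T- and lowest at D0, with a spread of 0.35. Members with a CTCF motif had lower levels than members as a whole, with a median of 1.87 CPM in D6T- against 2.38, and a smaller median spread (0.36 against 0.42). Only 2 of them leaned 2-fold to early cells and 2 to late cells.

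**Figure D2:**
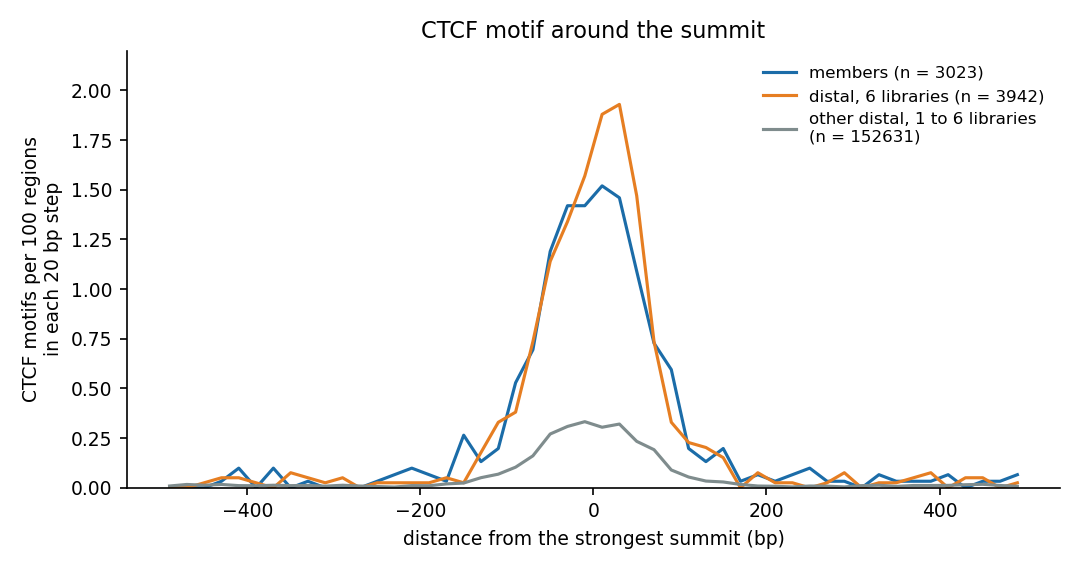
Frequency of the CTCF motif (vertical axis, motifs per 100 regions in each 20 bp step) by distance from the strongest summit (horizontal axis, bp) for the 3023 members, the 3942 distal regions present in 6 libraries and the 152631 other distal regions. All 3 curves are centred on the summit, and the members average 1.46 within 40 bp of it and 0.0331 beyond 400 bp.

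AP-1 motifs were less frequent in members than in other distal regions. TGANTCA lay in 20.3% of members (615), in 27.6% of the other distal regions and in 24.2% of all union regions, a difference of −7.30 points from the other distal regions (−8.71 to −5.81). The share did not fall steadily with presence. It was 21.8% in the 80065 distal regions present in 1 library, 30.1% in 2, 37.4% to 39.7% in 3 to 5 and 20.4% in 6. Motifs of other factors of somatic cells were also rarer in members. Motif shares here and below were not matched for base composition. Members had a higher median GC than other distal regions (55% against 49%), and its part in these shares was not tested. The TEAD motif (CATTCC), bound by the partners of YAP, lay in 14.1% against 16.3%. For RUNX (TGTGGTT) the shares were 4.33% and 6.45%, and for CEBP (TTGCNNAA) 6.88% and 9.00%. Each of these 3 differences had an interval below 0, and in all union regions the shares were 15.2%, 5.89% and 8.33%. In distal regions in 6 libraries they were 15.8%, 4.69% and 8.14%. Against these, the interval reached above 0 for TEAD (−3.36 to 0.00839) and RUNX (−1.33 to 0.639), but not for CEBP (−2.5 to −0.00554).

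Among motifs of the reprogramming factors, the SOX motif (ACAATG) lay in 8.77% of members and 14.3% of other distal regions (−5.58 points, −6.55 to −4.50), with 12.9% in all union regions. The octamer (ATTTGCAT), bound by Oct4, lay in 1.69% and 1.87%, a difference within its interval (−0.588 to 0.348), with 1.68% in all. The KLF motif (CCNCACCC) lay in 14.2% of members and 9.65% of other distal regions (4.55 points, 3.34 to 5.84), with 10.5% in all. It was as frequent near TSSs (14.3%) and in distal regions in 6 libraries (15.5%), from which members differed by −1.31 points (−2.98 to 0.384). The E-box of Myc (CACGTG) lay in 4.73% of members and 3.34% of other distal regions (1.39 points, 0.683 to 2.21), with 3.72% in all.

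Motifs of promoters were more frequent in members than in other distal regions and rarer than near TSSs. The SP motif (GGGCGGG) lay in 14.7% of members, 3.25% of other distal regions, 43.9% of regions within 3 kb of a TSS present in all 7 and 6.40% of all regions. It can overlap the KLF motif. For ETS (CCGGAAG) these shares were 3.70%, 1.45%, 14.4% and 2.27%. For NRF1 (GCGCATGC) they were 1.32% (40 members), 0.342%, 4.04% and 0.595%. The B box (GTTCGANNC) lay in 35 members (1.16%), in 0.328% of other distal regions and in 0.675% of the regions near a TSS, with 0.387% in all. Members exceeded other distal regions beyond the interval for all 4. YY1 (AAGATGGC) was rarer in members, 1.16% against 1.64% (1.62% in all), a difference of −0.487 points (−0.817 to −0.0343). In distal regions in 6 libraries its share was 1.07%, not different from the members beyond the interval (−0.401 to 0.619). The CArG box of SRF lay in 0.959% against 0.937%, within the interval (0.883% in all), and the NFI palindrome in 3 members.

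**Figure D3:**
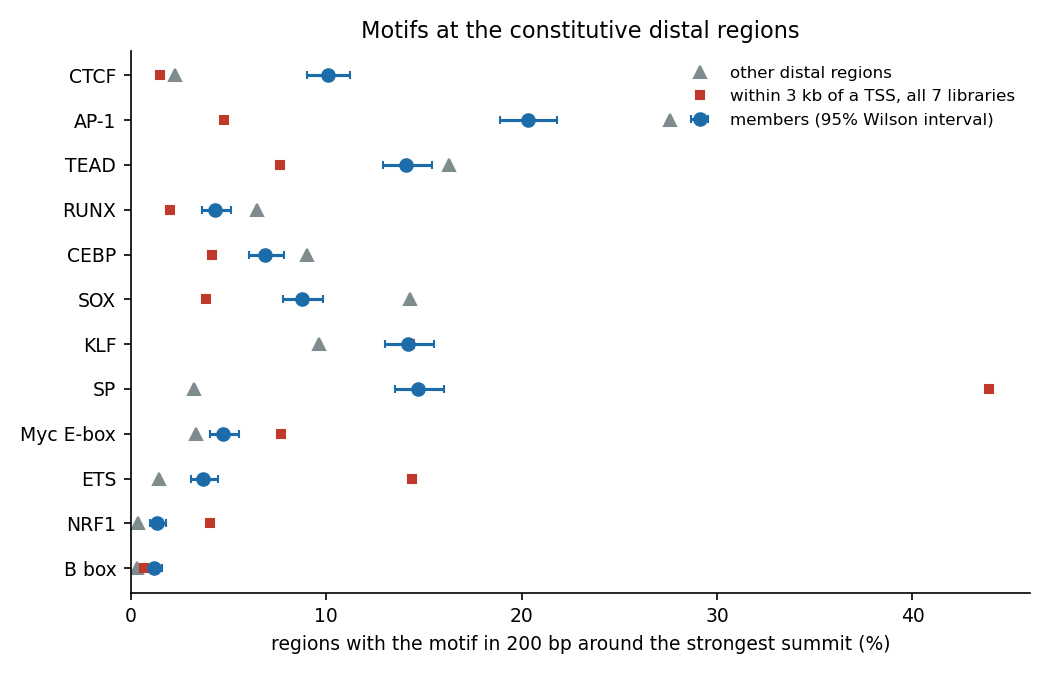
Share of regions with each motif in 200 bp around the strongest summit (horizontal axis, %) for 12 motifs (vertical axis). Circles are the 3023 members with 95% Wilson intervals, triangles the other distal regions and squares the regions within 3 kb of a TSS present in all 7. For CTCF the members (10.1%) lie above both groups, and for AP-1 (20.3%) and SP (14.7%) they lie between them.

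The members were richer in GC and CpG than other distal regions and poorer than regions near TSSs. Median GC was 55.0% in 200 bp, against 49.0% and 65.5%. The median count of CpG was 5 in members, 2 in other distal regions and 17 near TSSs. CpG-rich DNA (GC of at least 50% and an observed to expected CpG ratio of at least 0.6) made up 614 members (20.3%, 18.9 to 21.8), 2.49% of other distal regions, 78.4% of the regions near TSSs and 8.48% of all regions. The share was 17.8 points above other distal regions (16.4 to 19.3) and 11.3 points above regions in 6 libraries (9.57 to 13.0). CpG-rich members had a median level of 2.90 CPM in D6T- and 1.61 in D16S+, against 2.38 and 1.09 for all members. CTCF and AP-1 motifs lay mostly outside them: 31 of 304 members with a CTCF motif and 33 of 615 with an AP-1 motif were CpG-rich. Neither motif, nor CpG-rich DNA, nor a B box, nor a second copy was found in 1358 members (44.9%).

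The day 6 siRNA libraries, which had no part in the choice of members, were next used to see whether members were found again. Of 3023 members, 2657 (87.9%, 86.7 to 89.0) overlapped a peak of D6_siNT and 2650 (87.7%, 86.4 to 88.8) a peak of D6_siH3.3. Among all distal regions of D6T-, 26.3% were called in D6_siNT and 27.2% in D6_siH3.3. Members exceeded the other distal regions of D6T- (24.3% and 25.2%) by 63.6 points (62.3 to 64.7) in D6_siNT and by 62.4 points (61.2 to 63.6) in D6_siH3.3. With the same number of strongest peaks from each library, these differences were 30.5 and 28.8 points. They exceeded distal regions in 6 libraries by 22.8 and 23.1 points and fell short of regions near TSSs by 9.53 and 9.25 points.

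Level moved with being found again, and a difference remained between regions of like level. The bins did not match width, and members were wider than other distal regions (median 838 against 346 bp). An overlap of 1 bp counted as called again, and the part of width was not tested. Among regions below 1 CPM in D6T-, 124 of 182 members (68.1%) and 8.37% of the others were called in D6_siNT, with median levels of 0.748 and 0.654 CPM. Members also had the higher median within each of the other bins. Between 1 and 2 CPM the shares were 74.2% and 41.5%, between 2 and 4 CPM 95.4% and 87.4%, and from 4 CPM upwards 99.8% and 98.0%. In D6_siH3.3 the same bins gave 64.8% and 8.92%, 75% and 43.6%, 94.8% and 87.8%, and 99.8% and 97.6%. All 8 differences had an interval above 0. They fell from 59.8 points in the lowest bin to 1.86 points in the highest in D6_siNT. Both siRNA libraries held 2451 members (81.1%), D6_siNT alone 206, D6_siH3.3 alone 199 and neither 167 (5.52%), whose median level in D6T- was 1.26 CPM. Members with a CTCF motif were found again less often than those with an AP-1 motif, 75% against 93.5% in D6_siNT and 76.3% against 92.4% in D6_siH3.3, and their levels were also lower.

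**Figure D4:**
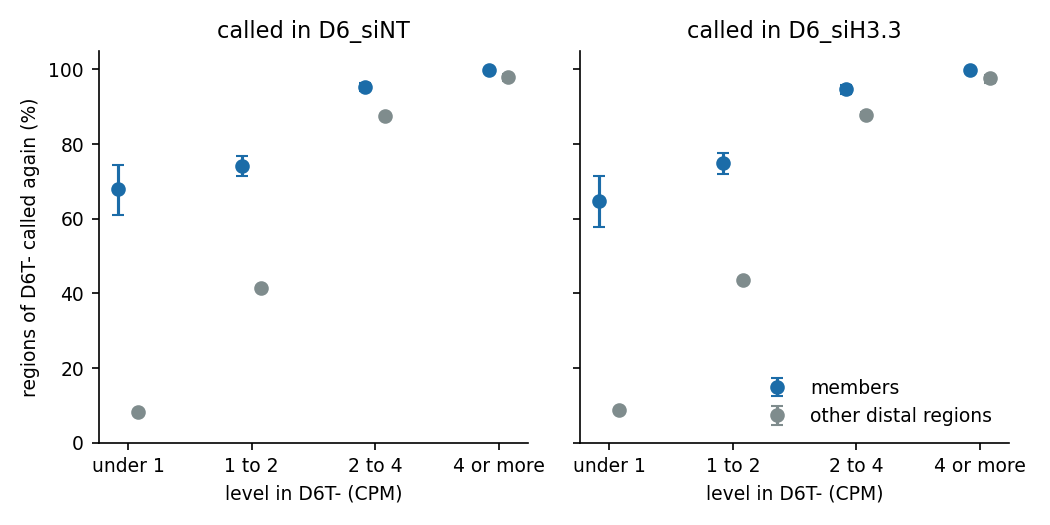
Share of regions of D6T- that were called again in each siRNA library (vertical axis, %) by their level in D6T- (horizontal axis, CPM) for members and other distal regions, with 95% Wilson intervals. Members lie above the other regions in all 4 bins of both libraries, and the gap narrows as the level rises.

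Members called in both siRNA libraries changed little between D6_siH3.3 and D6_siNT. The 206 members called in D6_siNT alone and the 199 called in D6_siH3.3 alone have no ratio. Larger changes can therefore be missing from these values. In the 2451 members called in both, the median level was 1.02 CPM in D6_siH3.3 and 0.964 CPM in D6_siNT. The median log2 ratio was 0.05, with quartiles of −0.21 and 0.32. At least 1.5-fold higher in D6_siH3.3 were 233 members (9.51%), against 9.6% of all 32271 union regions called in both. At least 1.5-fold lower were 121 members (4.94%), against 5.18% of all. Both shares lay near the background, and the median over all regions was 0.08. The balance of the 2 directions depended on the scaling. With the median of all shared regions removed, 152 members were higher and 187 lower, and on fold enrichment 146 and 141. With 1 library on each side there was no test of these ratios. By sequence, the median log2 ratio was 0.12 for members with a CTCF motif, 0.05 with an AP-1 motif and 0.03 for CpG-rich members.

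Members lay between genes more often than other distal regions. The midpoint was intergenic for 1844 members (61.0%, 59.2 to 62.7), in an intron for 1025 (33.9%) and in an exon for 154 (5.09%). Among other distal regions 50.0% were intergenic and 45.3% intronic, differences of 11.0 points (9.25 to 12.8) and −11.4 points (−13.1 to −9.71). Members were nonetheless nearer to a TSS, at a median of 15224 bp against 22051 bp. Distal regions in 6 libraries were close to the members in this, with a median of 16082 bp and 33.5% within 10 kb. Within 10 kb lay 35.2% of members and 26.9% of other distal regions (8.29 points, 6.60 to 10.0), and beyond 100 kb 5.72% and 13.7%. The farthest was chr1:41446891-41447648, 584823 bp from the TSS of Tmem182, which measured 1.10 CPM at D0, 4.72 in D6T- and 0.752 in iPSCs. The next were chr5:41344153-41344583, at 547200 bp with an AP-1 motif, and chr15:21586093-21586447, at 542146 bp. The last was lowest in D6T- (0.421 CPM) and highest in D9T- (2.04 CPM), opposite to most members.

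Members just inside the distance rule were chr11:83253664-83254718 and chr7:134620948-134623088, both 3003 bp from a TSS, and chr6:122754407-122754934 near Slc2a3, at 3012 bp. Just outside it were chr7:30603550-30604632 near Zfp790 (3000 bp), chr17:6266992-6267965 near Tmem181a (2997 bp) and chr4:135696128-135696688 near a U6 gene (2997 bp). Nearest to the calling threshold was chr2:107015880-107016372, with 0.331 CPM at D3 and 0.85 CPM at most, followed by chr5:117943931-117944413 (0.331 CPM at D3) and chr1:90188091-90189257 (0.374 CPM in D6T-). Among distal regions that missed 1 library, the strongest were chr18:30280934-30281965, chr4:21649966-21650724 near Ccnc and chr4:65991488-65992187. All 3 missed D0 and measured 1.75 CPM or more in their other libraries.

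Members were spread over 1289 bins of 1 Mb, of which 571 held 1 member, and 13 bins with 10 or more held 184 members. The densest were on chromosome 5. Between 15 and 16 Mb lay 30 members beside Speer4d, Speer4c and other Speer genes, a family expressed in testis, and all 30 had a second genome copy of at least 1 of 4 stretches of 51 bases around the summit. The bin before it, from 14 Mb, held 20 members, 17 of them with a second copy. On chromosome 8, 22 members between 19 and 20 Mb beside 6820431F20Rik all had a second copy, and so did 12 of 12 on chromosome 17 between 6 and 7 Mb beside Tmem181b-ps and Dynlt1a. On chromosome 4 between 146 and 147 Mb, beside Vmn2r-ps19, 7 of 12 members had a second copy, and none of the 12 exceeded 0.701 CPM in D6T-. On chromosome 6 between 128 and 129 Mb, beside Klrb1c and Tead4, it was 4 of 12. On chromosome 13 between 21 and 22 Mb, beside Hist1h2bl, Trim27 and Zkscan3, 7 of 12 members held a B box and 3 a second copy. On chromosome 12 between 114 and 115 Mb, beside Ahnak2, Crip1 and Crip2, 0 of 12 had a second copy. The bin of chromosome 19 from 5 Mb held 10 members beside the long non-coding RNAs Malat1 and Neat1 and beside Rela, the p65 subunit of NF-κB, 2 of them with a CTCF motif. In the order named, these bins also held 95, 79, 115, 308, 146, 90, 49, 160 and 112 other distal regions. Members were 1.94% of all distal regions. The bins thus differed in how many distal regions of any kind they held.

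Whether members gathered at genes of either cell identity could not be told, because the gene lists were short. Of 21281 protein-coding genes, 1833 (8.61%) were the nearest gene of at least 1 member. In a list of pluripotency genes this held for Esrrb, 1 of the 11 found on these chromosomes (9.09%), and in a list of 12 fibroblast genes for 0. None of Pou5f1, Sox2, Klf4, Myc, Nanog, Thy1, Fut4, Twist1 and Col1a1 was the nearest gene of a member. Of these 9, 7 were the nearest gene of another distal region (77.8%), near the share among all protein-coding genes (72.1%). Esrrb encodes a nuclear receptor of pluripotent cells, and its member was the intronic region chr12:87774169-87774739, 11621 bp from its TSS. It measured 0.473 CPM at D0, 0.628 at D3, 1.87 in D6T-, 1.06 in D9T-, 1.14 in D12S+, 0.756 in D16S+ and 0.978 in iPSCs, and 0.551 in D6_siNT. Like most members it was highest in D6T-, and it was not called in D6_siH3.3.

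Near Actb, the housekeeping gene of beta-actin, chr5:143682229-143682958 held an AP-1 motif 14160 bp from the TSS. It measured 1.58 CPM at D0, 3.54 at D3, 7.76 in D6T-, 2.35 in D9T-, 2.38 in D12S+, 1.04 in D16S+ and 1.05 in iPSCs. Early cells were thus higher there, by 1.98 times relative to the member medians. The other Actb member, 3575 bp from the TSS, did not exceed 1.78 CPM.

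The highest members were mostly repeated DNA. A second copy of a stretch of 51 bases, the read length, was found in 274 members (9.06%) and in 8.43% of other distal regions, a difference within its interval (−0.348 to 1.72). It was found in 2.73% of regions near TSSs and in 7.98% of all regions. Among the 20 members with the highest mean level, 15 had a second copy, and 16 had that or shared sequence with chrM. Members with a second copy had a median spread of 0.65, and 52 of the 274 (19%) leaned 2-fold to late cells.

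Sequence shared with chrM was found in 13 members (0.43%), counted where at least 5% of their stretches of 25 bases occurred there, and 5 of them were among the 20 highest. The highest of all members, chr12:98299480-98300164, shared 47.8% of its stretches. It measured 130 CPM at D0, 177 at D3, 409 in D6T-, 603 in D9T-, 354 in D12S+, 328 in D16S+ and 257 in iPSCs, and 332 in D6_siH3.3 and 336 in D6_siNT. It was highest in D9T-, unlike most members. Its level moved with the median summit of chrM, at 0.39 to 0.509 of it in the 9 libraries. For chr2:69193433-69193850 near Abcb11, which shared 26.6%, the level ran from 27.5 CPM at D3 to 146 CPM in D9T-. The other 3 among the 20 highest were chr6:9839776-9840318 (19 to 90.1 CPM), chr13:85266013-85267388 near Ccnh (12.1 to 60.2 CPM) and chr5:60433798-60434468 (5.46 to 36.6 CPM). Whether tags of chrM were placed at these members was not tested.

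**Figure D5:**
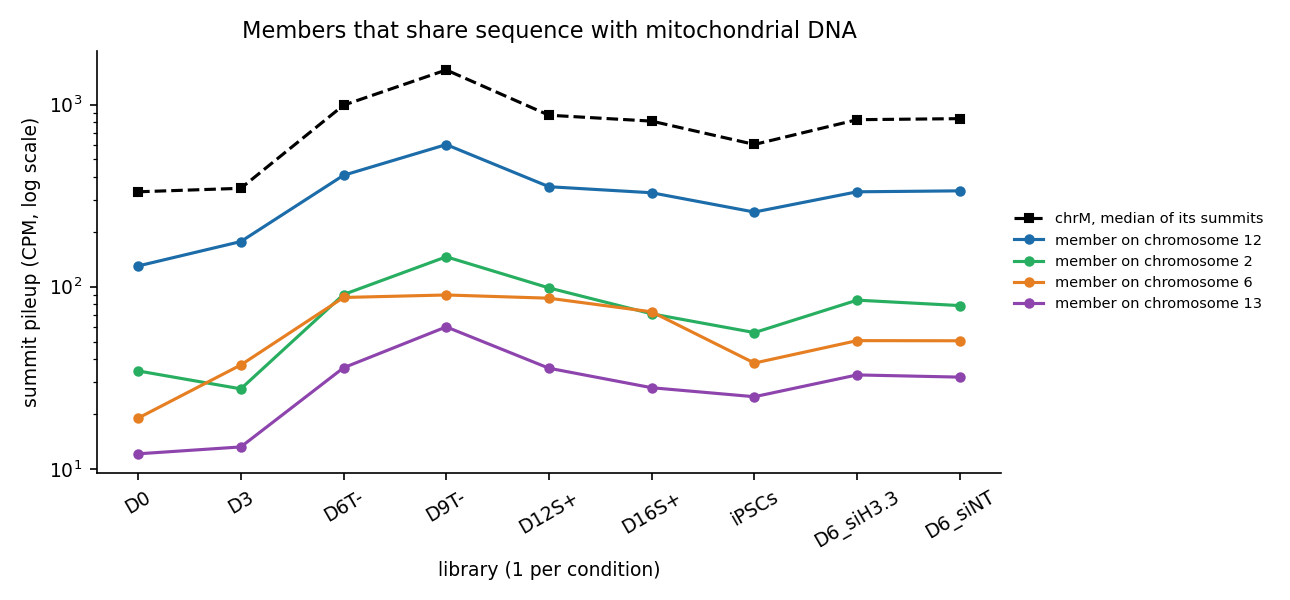
Summit pileup (vertical axis, CPM, log scale) in the 9 libraries (horizontal axis, 1 each) of the 4 highest members that share sequence with mitochondrial DNA, with the median of the chrM summits as squares and a broken line. All 4 are highest in D9T-, as chrM is, and the member on chromosome 12 runs at 0.39 to 0.509 of the chrM median.

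The 3 members with satellite repeats among the 5 highest had another pattern. The member chr9:35112654-35113337 measured 74.9 CPM at D0, 157 at D3, 123 in D6T-, 240 in D9T-, 246 in D12S+, 260 in D16S+ and 126 in iPSCs. The member chr12:3109710-3110268, which shared 27.5% of its stretches of 15 bases with it, ran from 34.1 CPM at D0 to 160 CPM in D16S+. The minor satellite member chr6:103598905-103599430 ran from 38.2 to 145 CPM over the same 2 libraries. All 3 were lowest at D0 and highest in D16S+, and relative to the member medians late cells were 2.23 to 2.28 times as high. Shorter matches to the first of them were wider. In all, 36 other members shared at least 5% of their stretches of 15 bases with chr9:35112654-35113337, with a median share of 6.79%. Most of these did not have its pattern, since 7 were lowest at D0, 4 were highest in D16S+ and 24 were highest in D6T-. The 2 members that shared as much with the minor satellite member were both lowest at D0 and at least 2-fold higher in late cells.

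Members without an exact second copy of the 4 stretches and without chrM sequence reached lower levels. The highest was chr11:108872800-108873565, a CpG-rich region 4217 bp from the TSS of the pseudogene Gm11668, with 14.2 CPM at D0, 34.2 at D3, 24.0 in D6T-, 23.7 in D9T-, 35.3 in D12S+, 62.2 in D16S+ and 21.1 in iPSCs. It was highest in D16S+, not in D6T-. The next were chr2:98463706-98463911 (7.79 to 24.4 CPM), chr17:71312901-71313382 (4.89 to 24.8 CPM), chr1:197067518-197068232 (4.13 to 23.5 CPM) and chr4:64158727-64159245 (4.35 to 14.1 CPM), and each was lowest at D0 and highest in D16S+. The copy count misses diverged repeats, so repeated sequence can remain among these members. The 2 members that shared sequence with the minor satellite member had no exact second copy, and measured 13.1 and 14.1 CPM in D16S+. The NRF1 member near Hic2 printed above (chr16:17222273-17222682) also rose to 15.0 CPM in D16S+, from 2.65 at D0. By contrast the AP-1 member near Zfp869 (chr8:72240182-72241427) was highest in D6T- at 15.2 CPM and lowest in iPSCs at 2.52. The B box member near Klrb1c (chr6:128752476-128753624) measured 10.4 CPM in D6T-, 1.99 at D0 and 2.33 in iPSCs.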

How the data were processed

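Mapping of ATAC-Seq reads to mm9 by STAR, removal of duplicates with Picard and peak calling with MACS2 2.1.0.20151222 were performed by the authors. Their methods discard reads with more than 2 mismatches or with several loci. Per the file headers, no control was used, the q-value cutoff was 0.05, the local background was off and tags were extended to 200 bp. The deposited pileup is a signal (extended tags over a summit, not scaled for depth), the deposited fold enrichment a ratio over tags spread evenly over the genome, and the deposited significance a −log10 p-value and q-value. The methods state that chrM was removed, but the deposited peaks include chrM.

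Peaks of chromosomes 1 to 19 were merged, TSSs came from GENCODE vM1 on mm9, and pileups were divided by each library's tags. The members, the lists and the motifs were chosen with earlier results of these data known. Shares are given with 95% Wilson intervals and differences of shares with Newcombe intervals, where counts are of regions and no replicates exist. Windows of 200 bp centred on the strongest summit were searched for 16 motifs, and copies of 4 stretches of 51 bases around it were counted in the genome. The CENP-B box, the copy count, the CpG-rich class and the comparison with chrM were added after the values were seen. Named members were the 5 highest, the 5 most and 5 least even of the upper 50%, the 3 most early, late and distant, those at the thresholds, those nearest a listed gene and the highest of each motif shown. Depth (13213117 to 31714845 tags per library) limits which weak regions were called. Calculations used Python 3.11.15, numpy 2.4.6, pandas 2.3.3, scipy 1.17.1 and matplotlib 3.10.9, and 8 of 8 checks on simulated data recovered the planted answer. No repeat masking was used. The full housekeeping list is not reported here.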

Additional observations from a re-analysis of the deposited data

Results flagged for a closer look

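Peaks on chrM were present in all 9 libraries, outside the chromosomes that the regions were taken from. The median chrM summit was 332 CPM at D0, 347 at D3, 992 in D6T-, 1549 in D9T-, 874 in D12S+, 811 in D16S+ and 604 in iPSCs. In the siRNA libraries it was 826 in D6_siH3.3 and 837 in D6_siNT. These tags are part of the totals by which all levels were divided, and their effect on the members' levels was not tested.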

How the results depend on the processing

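The number of members depended on how peaks were chosen. It was 1039 with the stronger 50% of the peaks, 1482 with equal numbers of the strongest peaks from each library and 1960 with a TSS distance over 10 kb, against 3023. The other definitions, including that without D9T- (4504), stayed within 1.5 times. Members at least 1.5-fold higher in D6_siH3.3 fell from 233 to 152 once the median of all shared regions was removed, to 146 on fold enrichment and to 31 at 2-fold. Those lower changed from 121 to 187 with the median removed and to 12 at 2-fold. In each case the share stayed within 0.4 points of that of all regions. Median GC was 53.2% and CpG 2.25 per 100 bp in 400 bp windows, and 64.9% of members beyond 10 kb of a TSS were intergenic. The excess of members found again kept its direction but was 30.5 points in D6_siNT and 28.8 in D6_siH3.3 with the same number of strongest peaks. The excess of the CTCF motif ranged from 4.62 to 19.8 points over 7 alternatives. Relative to the median of all regions present in the 7 libraries, members leaning 2-fold to early cells rose from 151 to 263 and those leaning to late cells fell from 171 to 77. This centring and the omission of repeated or CpG-rich sequence were chosen after seeing the data, and no difference of shares changed its direction. No paired analysis was possible because each condition had 1 library. The alternative without repeat-masked bases was not run, since the genome used marks no repeats. The cause of these changes was not tested.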

Other observations

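Members took a like share of the distal regions on most chromosomes, from 1.58% on chromosome 10 to 2.44% on chromosome 17 and 2.63% on chromosome 7. Chromosome 7 held the most members (252) and chromosome 19 the fewest (77). The nearest gene was protein-coding for 74.0% of members and 69.5% of other distal regions, a long intergenic RNA for 4.10% and 3.19%, and a pseudogene for 5.59% and 6.95%. Members with a B box (35) were found again in 100% of cases in D6_siNT and in 94.3% in D6_siH3.3, and 0 of them leaned 2-fold to early or late cells. Their median distance to a TSS was 9454 bp, against 15224 bp for all members, and 14 of the 35 were CpG-rich. Their median level was 3.13 CPM in D6T-, against 2.38 for all members.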
